A study of Mus musculus with 12 samples.

Results

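The heat-shock chaperones examined here are 10 genes chosen by name, out of 32285 gene symbols in the matrices: Hspa1a, Hspa1b, Hspa8, Hsph1, Dnajb1, Dnaja1, Hsp90aa1, Hspd1, Hspe1 and Hspb1. All 10 were found, and all 10 were tested in the comparison over all cells. Chaperones bind unfolded or damaged proteins and help them to fold. HSP70 proteins do so in cycles driven by J-domain partners and by exchange factors, HSP90 acts on partly folded clients such as kinases and receptors, and HSP60 with its lid HSP10 folds proteins inside mitochondria. The transcription factor HSF1 raises many of these genes after heat or other protein damage, while Hspa8, Hspd1 and Hspe1 are also used by unstressed, growing T cells.

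Libraries were made from tumour T cells of C57Bl/6 mice that carried subcutaneous MCA205, a mouse fibrosarcoma cell line. The 3 anti-ACBP mice received an antibody that neutralises ACBP/DBI (acyl-CoA binding protein), while the 3 isotype mice received IgG2a. Either antibody was dosed at 2.5 mg/kg, repeated every 2 days, starting 2 days ahead of oxaliplatin and ending 1 day ahead of anti-PD1. Mice of both groups were injected with 300000 tumour cells, were given 10 mg/kg oxaliplatin after 8 days and 200 µg anti-PD1 another 8 days later, and their tumours were taken 2 days after that. CD4+ and CD8+ cells were mixed 1:1 before 10000 cells were loaded per 10x chip channel, so the ratio of both lineages is set by the sort. The age and sex of the mice are not given in the labels.

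The 6 libraries held 30749 cells and between 27791735 and 65519423 UMIs (counted molecules). Levels are given as CPM, the UMIs of a gene per 1000000 UMIs of the same cells. T cell markers were present in every library, with 5 of 5 genes detected. Between 114 and 230 cells per library had a barcode that another library also used. The numbered clusters, 0 to 8, are those of the deposited cell table, which gives them no names. Cd8a, Ccl5 and Cd8b1 were among the leading genes of cluster 0, Foxp3 led cluster 2, and Ccl3, Ccl4, Il2 and Ifng were among the leading genes of cluster 5, and all cells of cluster 4 were called S or G2M. The library of isotype 1 stood apart: it had the most UMIs and the most cells, it held 66.4% of cluster 8, and 6 of the 10 chaperone genes were highest in it in at least 7 of the 8 clusters from 0 to 7. Its median of 7147 UMIs per cell was below that of anti-ACBP 2, 7682. Values without isotype 1 are given beside those it moves most.

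Hspa1a and Hspa1b, which encode the inducible HSP70 proteins, are neighbouring genes on the minus strand of chromosome 17, with 10120 bases between them. The upstream sequences of both, and those of Hspe1 and Hspb1, are shown because the heat-shock element that HSF1 binds is built from inverted repeats of GAA, here searched as GAANNTTC or TTCNNGAA on both strands. Capitals mark every match, overlapping ones joined. Sequences are from RefSeq, build GRCm38.p6, read 5′ to 3′ on the strand of the gene.
Hspa1a, chr17:34972197-34972276, minus strand, 120 to 41 bases before the annotated start: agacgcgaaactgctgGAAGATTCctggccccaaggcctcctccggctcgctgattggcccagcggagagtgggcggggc
Hspa1b, chr17:34959279-34959358, minus strand, 120 to 41 bases before the annotated start: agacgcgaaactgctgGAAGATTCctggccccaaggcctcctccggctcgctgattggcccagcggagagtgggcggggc
Hspe1, chr1:55088053-55088082, plus strand, 95 to 66 bases before the annotated start: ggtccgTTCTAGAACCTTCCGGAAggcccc
Hspb1, chr5:135887779-135887858, plus strand, 140 to 61 bases before the annotated start: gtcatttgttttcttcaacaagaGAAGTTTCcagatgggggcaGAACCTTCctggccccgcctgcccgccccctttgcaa

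The printed stretches of Hspa1a and Hspa1b are the same, and over the 250 bases before the start they matched at 247 positions (98.8%). The copies are nearly identical, and the sources used here do not say how reads that match both were counted, so the split of UMIs between them is uncertain. Windows from 250 bases before to 50 bases after a start were found for 8 of the 10 genes. The paired motif was in a window of 7 of them (Dnaja1, Hspa1a, Hspa1b, Hspb1, Hspd1, Hspe1 and Hsph1). It was in 15.1% of the 32851 windows of 27025 genes. The chaperone counts are per gene, over every annotated start, and the percents are per window, so their units differ. A longer form, with 3 units in turn (GAA, TTC and GAA, or TTC, GAA and TTC, each parted by NN), was in a window of Hspd1, Hspe1 and Hsph1 and in 0.603% of all windows. These matches describe letters, not binding. Hspd1 and Hspe1 lie head to head on chromosome 1, and their annotated genes overlap by 96 bases on opposite strands. The printed Hspe1 stretch lies inside the annotated Hspd1 gene. The Hspd1 matches are the same bases as the printed Hspe1 matches, so a single site stands for both genes in both motif counts. The window of the other annotated Hspd1 start had no match. The sources used here do not say whether counting used strand, so UMIs in that overlap could belong to either gene.

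The level of all 10 genes was highest in cluster 8, in each of the 6 libraries. Cluster 8 was made from the expression of these cells, and its leading genes were Hspa1a, Hspa1b, Hspb1, Gm10501, Hsph1, Fos, Dnajb1 and Jun, so these levels describe the cluster and are not tested. Hspa1a averaged 2775 ± 734.8 CPM in cluster 8 and 54.3 ± 60.9 CPM in cluster 5, the next (SD, n = 6 libraries), a ratio of 51.1. Hspa1b averaged 2719 ± 622.2 CPM in cluster 8 and 60.4 ± 66.0 CPM in cluster 5, a ratio of 45.0. Both inducible HSP70 genes thus had their largest gap between cluster 8 and the other cells, a gap wider than the spread over libraries. For Hspb1, a small heat-shock protein that holds unfolded proteins without using ATP, the mean was 172.2 ± 125.4 CPM in cluster 8 and 6.13 ± 15.02 CPM in cluster 6.

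**Figure D1:**
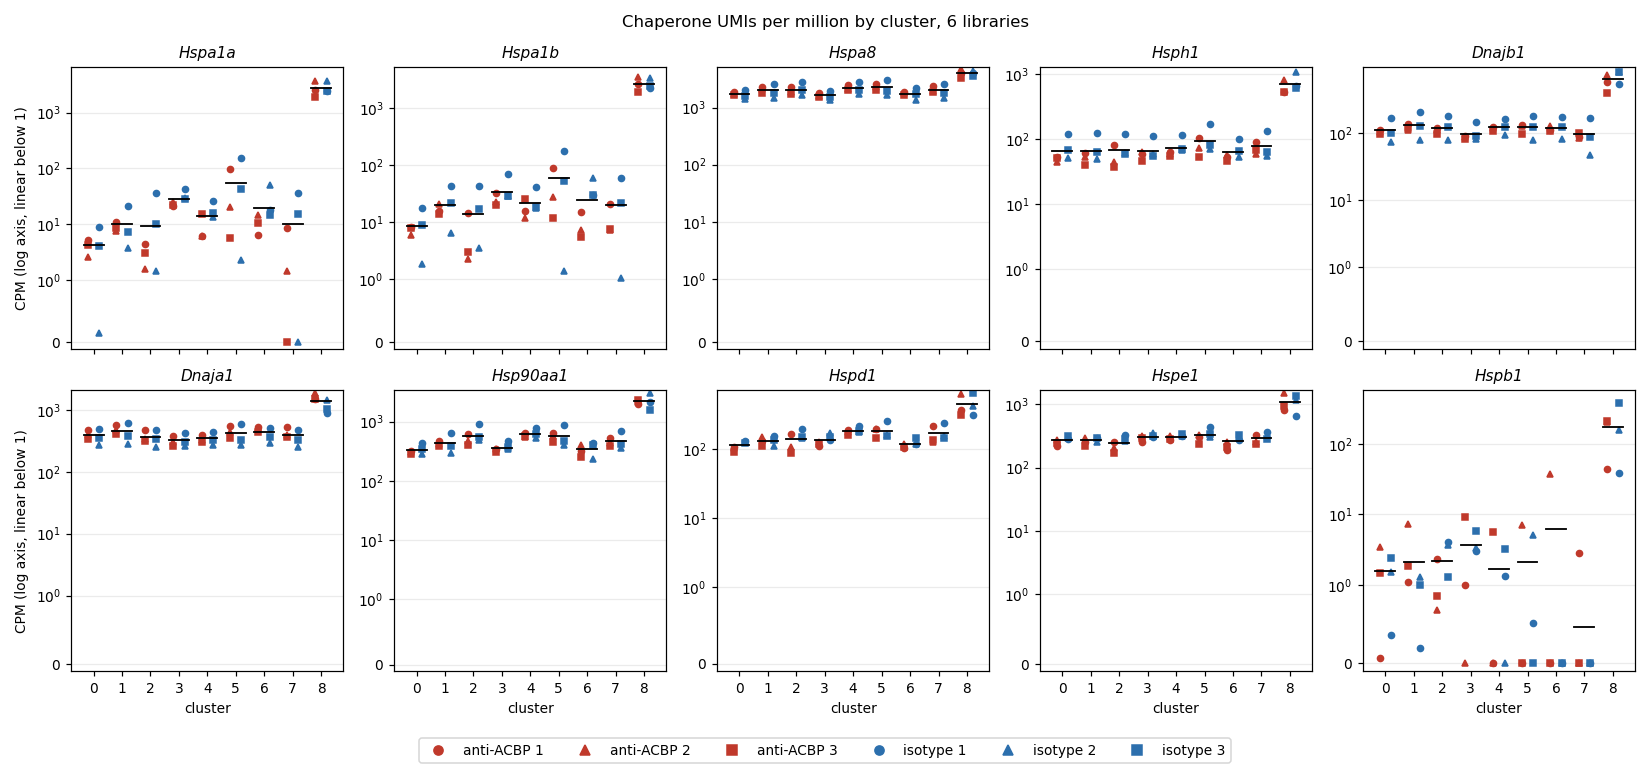
Level of each chaperone gene (CPM, log axis that is linear below 1) in clusters 0 to 8, 1 point per library, anti-ACBP in red at the left of each cluster and isotype in blue at the right; black lines are the mean of 6 libraries. Cluster 8 is highest in every panel, by 51.1 times over the next cluster for Hspa1a and by 1.77 times for Hspa8.

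The partners of HSP70 followed with smaller ratios. Hsph1, the HSP110 exchange factor, averaged 701.5 ± 209.8 CPM in cluster 8 and 92.4 ± 42.5 CPM in cluster 5, a ratio of 7.60. Dnajb1, the J-domain protein most tied to inducible HSP70, averaged 651.8 ± 171.4 CPM in cluster 8 and 130.3 ± 42.8 CPM in cluster 1, a ratio of 5.004. Dnaja1, a J-domain protein of the cytosol that unstressed cells also use, averaged 1368 ± 352 CPM in cluster 8 and 455.9 ± 126.4 CPM in cluster 1, a ratio of 3.00. The ratio was 3.60 for Hsp90aa1, the inducible cytosolic HSP90, with 2206 ± 466.9 CPM in cluster 8 and 613 ± 91.3 CPM in cluster 4. The mitochondrial pair had ratios of 2.43 for Hspd1 (HSP60) and 3.31 for Hspe1 (HSP10), each against cluster 5. Hspa8, the HSP70 that cells make without stress, had the smallest ratio, 1.77, with 3977 ± 505.8 CPM in cluster 8 and 2254 ± 485 CPM in cluster 5.

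Cluster 8 held 497 cells, 1.62% of all, yet 69.8% of the Hspa1a UMIs and 60.6% of the Hspa1b UMIs. It also held 36.4% of the UMIs of Hspb1, 11.5% of those of Hsph1, 6.40% for Dnajb1, 6.12% for Hsp90aa1, 3.96% for Hspe1, 3.67% for Dnaja1, 3.49% for Hspd1 and 2.80% for Hspa8. A cell of cluster 8 had a median of 11 Hspa1a UMIs and 11 Hspa1b UMIs, against 0 of each in the other cells. All but 1 of the 497 cells had a UMI of Hspa1a or Hspa1b. Hspb1 was rarer: its 763 UMIs came from 166 cells, and of the 41 cells with at least 5 of them 16 were in cluster 8. Its level in any cluster therefore rests on few cells, and up to 54 UMIs came from 1 cell.

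The cells of cluster 8 were T cells of both lineages. Of the 497, 251 had more Cd4 than Cd8a plus Cd8b1 UMIs, 154 had more Cd8a plus Cd8b1, 92 had equal numbers or none, and 74 had a Foxp3 UMI. By the phase in the cell table, 353 were in G1, 71 in S and 73 in G2M. T cell markers summed to between 3908 and 5082 CPM in the cluster 8 cells of each library, while all 8 fibroblast and all 7 macrophage markers were at 0 there. Over all cells those markers summed to at most 0.56 and 1.88 CPM in any library, so 0 in 497 cells says little. Summed endothelial markers reached 34.7 CPM in the cluster 8 cells of a library, and natural killer markers 16.5 CPM. B cell markers reached 7.85 CPM, neutrophil markers 0.83 CPM and dendritic markers 0.41 CPM. The median was 5256 UMIs per cell in cluster 8 and 6141 UMIs in the rest. The share of mitochondrial UMIs was 0.851% in cluster 8 and 0.821% in the rest.

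Cluster 8 made up 0.724%, 0.650% and 0.336% of the cells in the 3 anti-ACBP libraries and 4.56%, 0.839% and 0.914% in the 3 isotype libraries. These were 46, 19 and 14 anti-ACBP cells, against 330, 45 and 43 isotype cells. Every anti-ACBP library was below every isotype library, but the exact 95% binomial intervals of the first 2 anti-ACBP libraries (0.531 to 0.965% and 0.392 to 1.01%) overlapped those of isotype 2 and 3 (0.613 to 1.12% and 0.662 to 1.23%). The share of isotype 1 had an interval of 4.09 to 5.07%, and 330 of the 497 cells were from this library (66.4%, exact interval 62.1 to 70.5%). These intervals cover counting error only, and chaperone genes define the cluster, so the shares are not tested between groups.

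**Figure D2:**
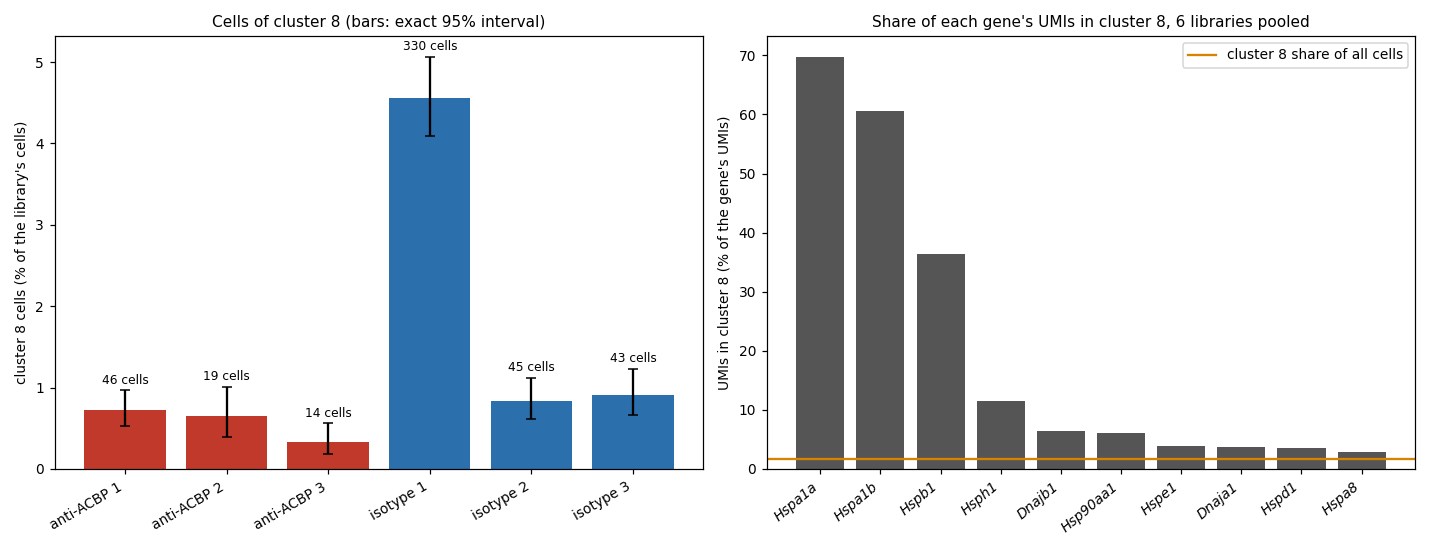
Left, cells of cluster 8 as a percent of all cells in each library (anti-ACBP red, isotype blue; error bars, exact 95% binomial interval; numbers, cells). Right, percent of the UMIs of each gene that lie in cluster 8, all libraries pooled, with the 1.62% of cells that are in cluster 8 as a line. Isotype 1 stands apart at 4.56%, and Hspa1a, Hspa1b and Hspb1 have the highest shares.

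Within cluster 8 the values of anti-ACBP and isotype cells overlapped for 9 of the 10 genes. The Hspa1a level was 2570, 3600 and 1877 CPM in the anti-ACBP cells of cluster 8 and 2402, 3741 and 2462 CPM in the isotype cells. Hspa1b had 2651, 3479 and 1963 CPM with anti-ACBP and 2291, 3454 and 2477 CPM with isotype. The groups overlapped for both, and isotype 1 had rank 5 among the 6 libraries for each. Dnaja1 had 1482, 1882 and 1468 CPM in the anti-ACBP cells and 902.7, 1435 and 1035 CPM in the isotype cells, and was the one gene of the 10 whose ranges did not overlap there. The share of all genes whose ranges did not overlap in cluster 8 was not counted, so the Dnaja1 values are a description only. With as few as 14 cells in a library, under the minimum of 20, cluster 8 was not fitted and these values have no test.

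Cells with much Hspa1a and Hspa1b also occurred outside cluster 8. At or above 1510 CPM for both genes together, the level that 90% of cluster 8 cells exceed, there were 45, 9 and 10 such cells in the anti-ACBP libraries and 74, 9 and 30 in the isotype libraries. They were 0.714%, 0.310% and 0.241% of the anti-ACBP cells outside cluster 8 and 1.07%, 0.169% and 0.643% of the isotype cells. The groups overlapped.

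In clusters 0 to 7 the 10 genes varied far less. The highest of the 8 cluster means was 12.8 times the lowest for Hspa1a, 7.20 times for Hspa1b and 13.04 times for Hspb1, and between 1.304 times (Hspe1) and 1.88 times (Hsp90aa1) for the other 7. Hspa1a came in the order cluster 5 (54.3 ± 60.9 CPM), 3 (28.3 ± 8.24), 6 (19.3 ± 15.9), 4 (13.9 ± 7.33), 7 (10.3 ± 14.3), 1 (9.98 ± 6.14), 2 (9.51 ± 13.5) and 0 (4.23 ± 2.95). No neighbours in this order were separated in all 6 libraries: cluster 5 was above cluster 3 in 3 of 6, and cluster 3 above cluster 6 in 5 of 6. Hspa1b had the same first 4 clusters in the same order, and cluster 0 was again lowest, at 8.39 ± 5.20 CPM. Hsp90aa1 was highest in cluster 4, the cells all called S or G2M, with 613 ± 91.3 CPM, then in cluster 2 with 577 ± 183.3 CPM, and lowest in cluster 0 with 326.9 ± 57.9 CPM. Hspd1 was highest in clusters 5 and 4, with 183 ± 38.9 and 181.6 ± 19.3 CPM, and lowest in cluster 0, with 112.4 ± 15.2 CPM. By their means, Dnaja1 and Dnajb1 were highest in cluster 1 and lowest in cluster 3, where Dnaja1 averaged 322.1 ± 65.7 CPM and Dnajb1 95.3 ± 24.5 CPM. For Dnajb1 cluster 7 had nearly the same mean, 95.4 ± 39.6 CPM, and was above cluster 3 in only 2 of 6 libraries. For Dnaja1 cluster 1 was above cluster 6, the next, in 3 of 6. Cluster 3 was below its neighbour, cluster 4, in 6 of 6 libraries for Dnaja1.

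The study asked what neutralising ACBP does in T cells of treated tumours. Over all cells, edgeR's quasi-likelihood test called none of the 10 chaperone genes between anti-ACBP and isotype at an adjusted p of 0.05, while it called 2.37% of 12484 genes tested. At an unadjusted p of 0.05 it gave 2 of the 10 and 2723 of all genes. DESeq2 called 1 of the 10, Hspe1, beside 7.53% of 11967 genes. The fitted log2 fold change was negative for 9 of the 10 genes, with a median of -0.28 beside -0.0048 over all genes tested. Without cluster 8, edgeR again called none of the 10, beside 2.08% of 12473 genes. At an unadjusted p of 0.05 it gave 2 of the 10 and 2717 of all genes. DESeq2 called Hspe1 there, beside 7.13% of 12687 genes. The median of the log2 fold changes fitted by edgeR was -0.26.

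For the inducible HSP70 genes, Hspa1a was at 29.4, 31.2 and 15.8 CPM in the anti-ACBP libraries and at 116.8, 31.7 and 30.8 CPM in the isotype libraries. Isotype 1 was far above the other 5 libraries, which overlapped. The log2 fold change was -1.24 ± 0.60 (SE; edgeR adjusted p = 0.29), and it was -0.28 when isotype 1 was left out. Without cluster 8, Hspa1a was at 15.1, 7.90 and 8.86 CPM in the anti-ACBP libraries and at 29.5, 7.38 and 13.05 CPM in the isotype libraries. The groups overlapped again, with a log2 fold change of -0.65 ± 0.53 (adjusted p = 0.53), and of 0.09 without isotype 1. Hspa1b was at 36.2, 34.2 and 19.9 CPM with anti-ACBP and at 126.4, 31.9 and 36.5 CPM with isotype, with the same single high library. Its log2 fold change was -1.11 ± 0.58 over all cells and -0.65 ± 0.56 without cluster 8, and 0.15 without both cluster 8 and isotype 1.

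**Figure D3:**
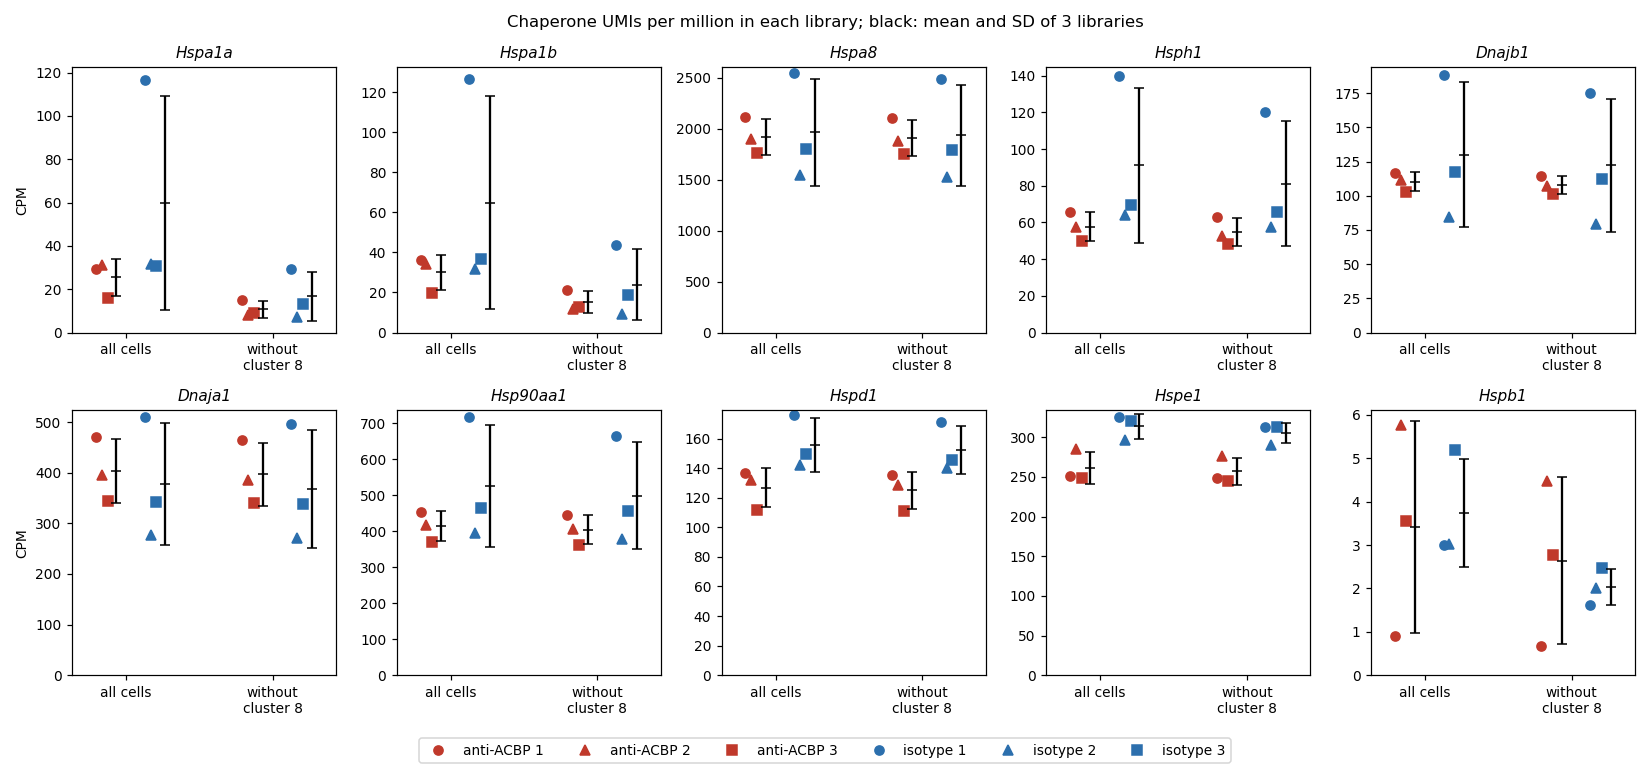
CPM of each gene in each library over all cells and without cluster 8, anti-ACBP in red left of isotype in blue; black marks are the mean and SD of 3 libraries. Isotype 1 (blue circle) is the highest point over all cells for every gene but Hspb1, while without cluster 8 isotype 3 is the highest for Hspe1, at 313.2 CPM, and for Hspd1 and Hspe1 all 3 anti-ACBP points lie below all 3 isotype points.

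The cofactors and HSP90 also took their highest value from isotype 1. For Hsph1 the anti-ACBP libraries had 65.8, 57.6 and 49.9 CPM and the isotype libraries 139.9, 64.3 and 69.6 CPM, a log2 fold change of -0.66 ± 0.31 (adjusted p = 0.28), and of -0.20 without isotype 1. Hsp90aa1 was at 452.7, 417.6 and 369.5 CPM with anti-ACBP and at 717.5, 394.0 and 464.4 CPM with isotype (log2 fold change -0.34 ± 0.22, adjusted p = 0.43; -0.04 without isotype 1). Isotype 1 also had the highest summed level of 15 genes for HSP90 and its co-chaperones, 4068 CPM, where the anti-ACBP libraries ranged from 2807 to 3094 CPM and the lowest isotype library had 3137 CPM. Dnajb1 was at 117, 111.6 and 102.8 CPM with anti-ACBP and at 188.2, 84.3 and 117.5 CPM with isotype (log2 fold change -0.23 ± 0.27; 0.14 without isotype 1). Dnaja1 was the only one of the 10 with a positive fitted change over all cells, 0.10 ± 0.24, at 403.5 ± 63.1 CPM with anti-ACBP and 377.2 ± 120.3 CPM with isotype (SD, n = 3 each); it was 0.39 without isotype 1 and -0.08 without isotype 2. Hspa8 averaged 1922 ± 176.6 CPM with anti-ACBP and 1962 ± 520.6 CPM with isotype (log2 fold change -0.02 ± 0.19; 0.21 without isotype 1). Hspb1 averaged 3.41 ± 2.44 CPM with anti-ACBP and 3.74 ± 1.25 CPM with isotype (log2 fold change -0.16 ± 0.59; -0.31 without isotype 1).

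The mitochondrial chaperonin genes were the ones whose groups did not overlap. Hspe1 was at 251.7, 284.9 and 248 CPM in the anti-ACBP libraries and at 325.1, 296 and 320.8 CPM in the isotype libraries. Each anti-ACBP library was below each isotype library, and the log2 fold change was -0.26 ± 0.07 with an adjusted p of 0.098 in edgeR and 0.041 in DESeq2. Hspd1 was at 136.5, 132 and 111.8 CPM in the anti-ACBP libraries and at 176, 141.8 and 149.3 CPM in the isotype libraries, again with no overlap (log2 fold change -0.29 ± 0.11, adjusted p = 0.19). Of all genes tested, 14.2% were lower in every anti-ACBP library in this way, beside 2 of the 10. The share of all genes that were higher in every anti-ACBP library was not counted, so non-overlap in either direction has no background here. Leaving out isotype 1 gave -0.23 for Hspe1 and -0.19 for Hspd1, and leaving out cluster 8 gave -0.25 and -0.28. The 3 markers of cycling cells summed to between 276.9 and 373.3 CPM in the anti-ACBP libraries and to between 461.9 and 598 CPM in the isotype libraries. Their part in the Hspd1 and Hspe1 values was not tested.

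**Figure D4:**
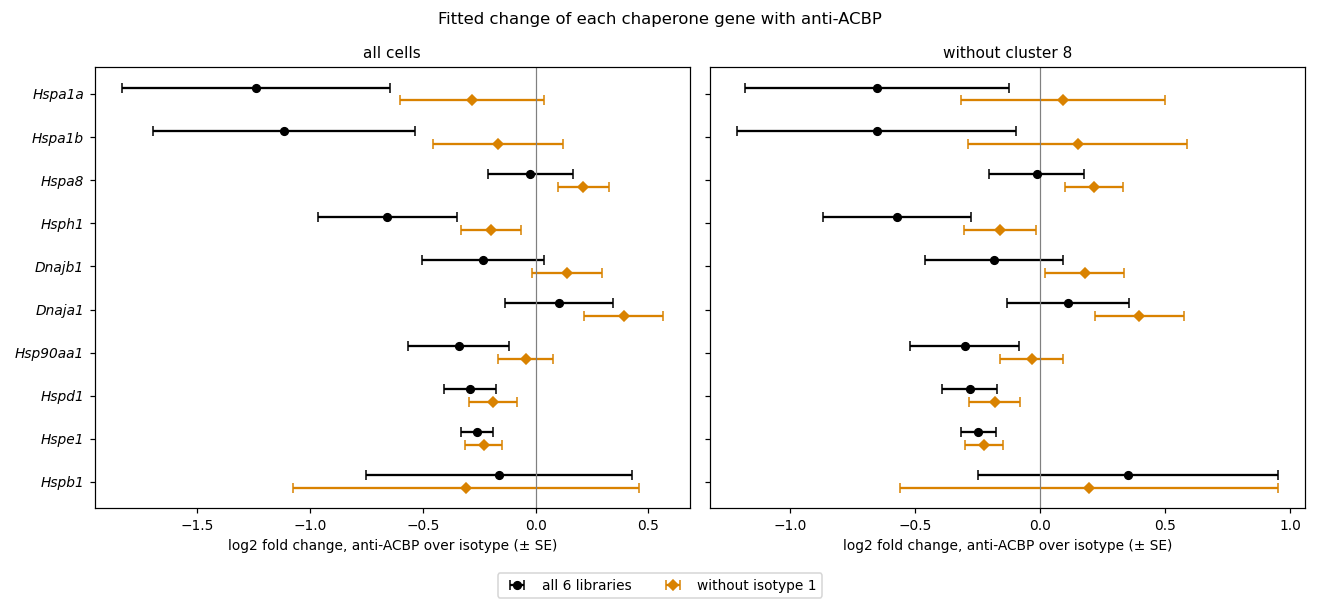
Fitted log2 fold change of anti-ACBP over isotype for each gene with its standard error, over all cells (left) and without cluster 8 (right), for all 6 libraries (black circles) and without isotype 1 (orange diamonds). Hspa1a moves from -1.24 with all 6 libraries to -0.28 without isotype 1, and Hspe1 from -0.26 to -0.23.

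Cluster by cluster, edgeR called none of the chaperone genes it tested in clusters 0, 1, 2, 3, 4, 5 and 7. Of all genes tested there, 1.24%, 0.192%, 4.05%, 0.218%, 0.919%, 0.207% and 0.44% were called. Hspb1 was not tested by edgeR in clusters 1, 4, 5 and 7, and Hspa1a was not tested in cluster 7. DESeq2 called Hspd1 in cluster 0 and Hspe1 in cluster 2, beside 2.99% and 5.14% of all genes there, and none in the other 5. At an unadjusted p of 0.05 the edgeR count was 2, 0, 1, 3, 3, 0 and 0 in clusters 0, 1, 2, 3, 4, 5 and 7. The chaperone genes tested there numbered 10, 9, 10, 10, 9, 9 and 8. In the same order, 15.9%, 13.2%, 21.2%, 11.2%, 11.7%, 8.36% and 9.64% of all genes passed that threshold. Hspe1 averaged less with anti-ACBP in each of clusters 0 to 7, and its groups did not overlap in clusters 0, 2 and 6, where 7.02%, 12.2% and 9.89% of the genes tested were lower in every anti-ACBP library. In cluster 2, the Foxp3 cluster, it averaged 210.3 ± 40.3 CPM with anti-ACBP and 289.7 ± 33.6 CPM with isotype (log2 fold change -0.47 ± 0.15, adjusted p = 0.12; -0.36 without isotype 1). In cluster 0 it averaged 245.9 ± 26.4 CPM with anti-ACBP and 300.6 ± 17.04 CPM with isotype (adjusted p = 0.10), and Hspd1 averaged 99.7 ± 8.27 CPM with anti-ACBP and 125.2 ± 4.31 CPM with isotype (log2 fold change -0.37 ± 0.09, adjusted p = 0.080). Groups also did not overlap in cluster 3 for Hspa1a (22.7 ± 1.83 CPM with anti-ACBP, 33.9 ± 8.57 CPM with isotype; log2 fold change -0.65, and -0.39 without isotype 1) and Hspd1 (log2 fold change -0.38, adjusted p = 0.17; -0.47 without isotype 1, edgeR adjusted p = 0.020), beside 6.23% of all genes, and in cluster 4 for Hsph1 (59.1 ± 4.12 CPM with anti-ACBP, 84.8 ± 26.9 CPM with isotype; log2 fold change -0.56, and -0.26 without isotype 1), beside 7.3%. In clusters 1, 5 and 7, where 9.61%, 6.91% and 6.7% of all genes were lower in this way, 0 of the chaperone genes tested were.

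Cluster 6, CD8 cells with Gzma and Itgax as leading genes, gave the 1 call. Of the 9 chaperone genes tested there Hspa1b fell with anti-ACBP (log2 fold change -1.86 ± 0.37, edgeR adjusted p = 0.014), beside 2.55% of 7252 genes called. It was at 14.8, 7.36 and 5.40 CPM in the anti-ACBP cells and at 29.5, 60.0 and 30.6 CPM in the isotype cells, with no overlap. These levels came from few cells: 18 of 394, 5 of 145 and 4 of 151 anti-ACBP cells had a Hspa1b UMI, and 10 of 114, 3 of 118 and 2 of 115 isotype cells. A single cell of isotype 2 held 37 of its 39 UMIs, and a single cell of isotype 3 held 13 of its 19. Without the highest cell of each library, 33, 5 and 3 Hspa1b UMIs were left in the anti-ACBP libraries and 17, 2 and 6 in the isotype libraries, too few to pass the filter on low counts. The adjusted p was 0.081 without isotype 2 and 0.066 without anti-ACBP 2. Hspe1 was at 187.6, 251.6 and 213.1 CPM in the anti-ACBP cells of cluster 6 and at 275.5, 303 and 331.6 CPM in the isotype cells, with no overlap, a log2 fold change of -0.46 ± 0.12 and an adjusted p of 0.0504 (-0.53 without isotype 1, edgeR adjusted p = 0.021).

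A test of whether the change with anti-ACBP differed among clusters 0 to 7 called 1 of the 10, Dnaja1 (edgeR adjusted p = 0.027), beside 1.58% of 11138 genes. Its fitted log2 fold change was 0.36 ± 0.17 in cluster 6, with 493 ± 47.5 CPM in anti-ACBP and 390.5 ± 109.4 CPM in isotype cells, 0.26 ± 0.27 in cluster 7 and 0.18 ± 0.34 in cluster 1. It was -0.07 ± 0.22 in cluster 3, with 317.4 ± 60.4 CPM in anti-ACBP and 326.8 ± 84.1 CPM in isotype cells, and -0.05 ± 0.21 in cluster 4. None of these single changes was called with all 6 libraries. Without isotype 1 all of them were positive: 0.61 in cluster 6 (edgeR adjusted p = 0.0057), 0.58 in cluster 7, 0.58 in cluster 1, 0.16 in cluster 3 and 0.16 in cluster 4. The call was lost when any library except isotype 1 was left out, with adjusted p between 0.10 and 0.25.

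In cluster 2 the same genes were compared between cells called S or G2M and cells called G1 within each library, in cells of the Foxp3 cluster. Of 9 chaperone genes tested 5 were called, all higher in S or G2M, beside 58.6% of 9410 genes called and 27.7% called higher. Hspd1 had 246.2, 167.9, 105.3, 253.2, 215.2 and 199.9 CPM in S or G2M cells of anti-ACBP 1 to 3 and isotype 1 to 3, and 125.9, 82.3, 83.0, 121.3, 91.8 and 86.2 CPM in the G1 cells of the same libraries. It was higher in 6 of 6 libraries, with a log2 fold change of 1.08 ± 0.07 (edgeR adjusted p = 3.4e-14). Hsp90aa1 averaged 784.7 ± 194.7 CPM in S or G2M and 433.1 ± 123.9 CPM in G1 (log2 fold change 0.90 ± 0.05, adjusted p = 7.3e-16). Hspe1 averaged 315.1 ± 66.7 CPM in S or G2M and 202.6 ± 33.1 CPM in G1, a log2 fold change of 0.68 ± 0.06. Hspa8 rose by 0.36 ± 0.05 and Hsph1 by 0.34 ± 0.08 on the log2 scale, each in 6 of 6 libraries.

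Hspa1a, Hspa1b, Dnajb1 and Dnaja1 were not called by cell cycle phase. Hspa1a ranged from 0 to 31.5 CPM in S or G2M and from 1.32 to 42.1 CPM in G1 (log2 fold change -0.29 ± 0.17, adjusted p = 0.14), and Hspa1b averaged 14.0 ± 14.1 CPM in S or G2M and 14.5 ± 19.5 CPM in G1. Dnajb1 averaged 121.8 ± 29.1 CPM in S or G2M and 119.8 ± 42.3 CPM in G1, and Dnaja1 345.2 ± 83.2 CPM in S or G2M and 370.8 ± 102.1 CPM in G1. Hspb1 was not tested. It averaged 0.79 ± 0.96 CPM in S or G2M and 3.21 ± 2.19 CPM in G1, and was lower in S or G2M in all 6 libraries. These levels rest on few UMIs, at most 21 in S or G2M and 41 in G1, both in isotype 1. The S or G2M cells were deeper, with medians between 6680 and 16755 UMIs, against 3550 to 6656 UMIs in G1. Mki67, a marker of dividing cells, was at 507.2 ± 124.1 CPM in S or G2M and 26.6 ± 5.56 CPM in G1. Within S or G2M the 3 anti-ACBP values of Hspe1 (343.7, 277.8 and 197.8 CPM) and the 3 isotype values (382.4, 349.7 and 339.2 CPM) overlapped, and so did those within G1 (209.6, 173.4 and 167 CPM with anti-ACBP, 258.7, 194.5 and 212.2 CPM with isotype).

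**Figure D5:**
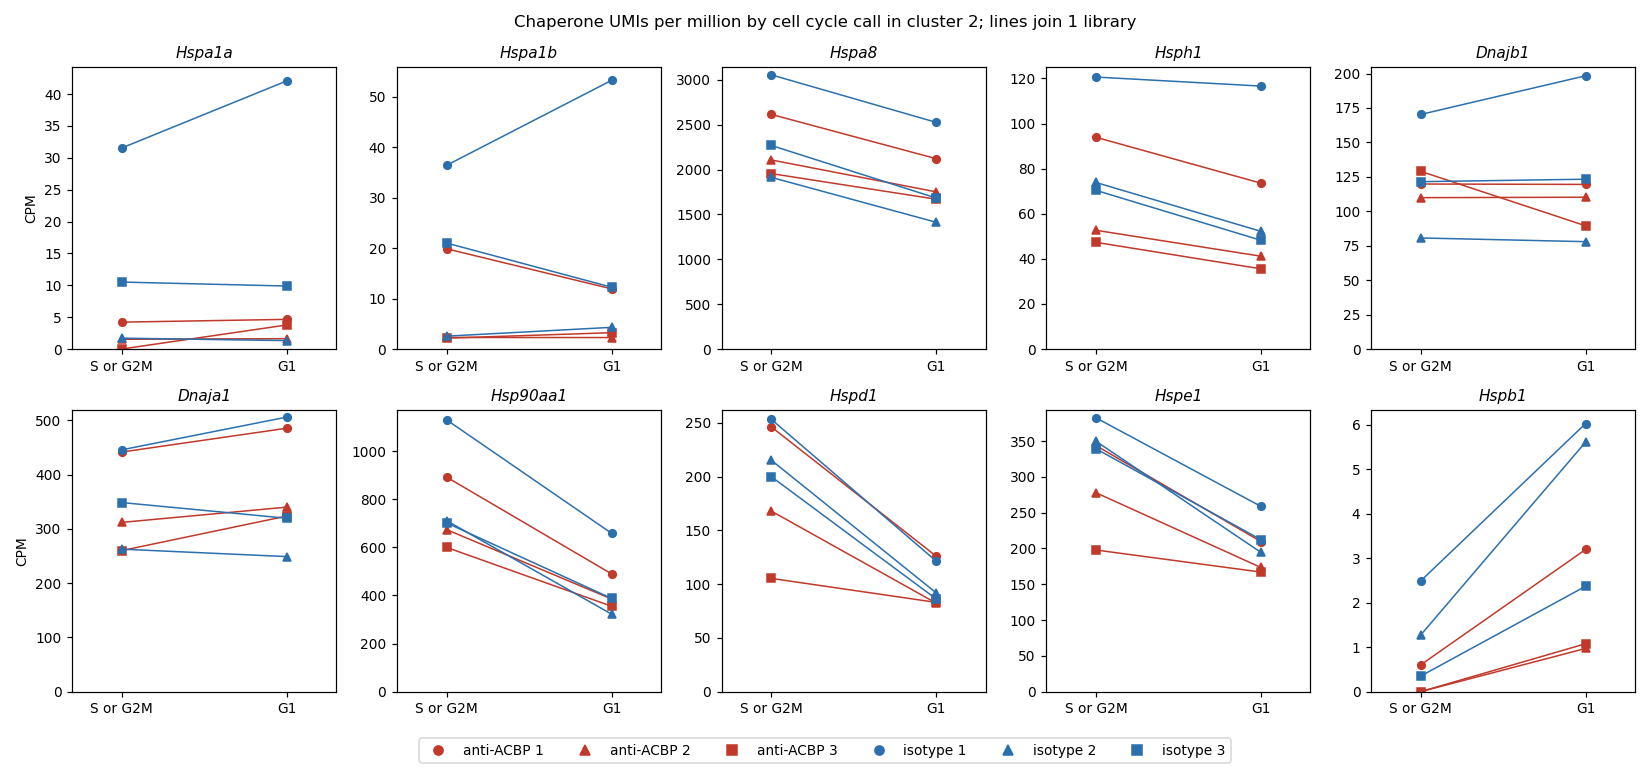
CPM of each gene in cluster 2 cells called S or G2M (left of each panel) and G1 (right), lines joining the values of 1 library (anti-ACBP red, isotype blue). Lines fall to the right in all 6 libraries for Hspd1, Hspe1, Hsp90aa1, Hspa8 and Hsph1, and run both ways for Hspa1a, Hspa1b, Dnajb1 and Dnaja1. The Hspb1 lines, on few UMIs, rise to the right in all 6 libraries.

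Levels of the 10 genes were compared over the sums of each library and cluster, as a description, since sums of 1 library share its depth and processing. Over the 48 sums of clusters 0 to 7, Pearson's r between log2 CPM was highest for Hspa1a with Hspa1b (0.91), Hspa8 with Hsp90aa1 (0.87) and Hsp90aa1 with Hspd1 (0.80), and lowest for Hspa8 with Hspb1 (-0.22). With cluster 8 added, 54 sums, all 45 pairs had an r of at least 0.51. Among 11138 genes compared, the 8 outside the 10 most like the mean of Hspa1a, Hspa1b, Dnajb1 and Hsph1 in clusters 0 to 7 were Luc7l3 (r = 0.68), Pop5, Rps2, Snhg6, Cacybp, Srsf11, Sap30 and Ppid (0.58). With cluster 8 they included Gm10501 (0.90), Cacybp (0.87), Dnaja4, Rbm4, Sap30, Hsp90ab1 and Swt1 (0.75). Cacybp and Sap30 were on both lists.

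Other genes of protein folding and stress were counted by list, without cluster 8, where 2.08% of all genes were called. No gene was called of 6 tested for other HSP70 and HSP110 proteins, 15 other J-domain proteins, 15 of HSP90 and its co-chaperones, 14 of CCT and prefoldin (which fold actin and tubulin), 7 mitochondrial chaperones and proteases, 4 of HSF1 and its regulators or 2 other small heat-shock proteins. The median log2 fold change of these lists ran from -0.06 to -0.22. Of 7 exchange factors Bag5 rose (20.7 ± 1.25 CPM with anti-ACBP, 16.1 ± 0.31 CPM with isotype, adjusted p = 0.047), and of 14 ER chaperones Dnajb9, a BiP partner of the unfolded protein response, rose (31.8 ± 1.41 CPM with anti-ACBP, 18.8 ± 2.80 CPM with isotype, adjusted p = 0.032). Of 21 immediate early genes, which also respond to tissue dissociation, 4 rose and none fell: Fosb (log2 fold change 1.80 ± 0.20), Egr1 (1.35 ± 0.20), Atf3 (1.31 ± 0.15) and Ier2 (0.46 ± 0.09). That count was 0 without isotype 3 or without any 1 of the anti-ACBP libraries. The Bag5 call was lost without any 1 library. The call of Dnajb9 was lost without isotype 3 or any 1 anti-ACBP library. The immediate early genes summed to between 4648 and 5682 CPM in the anti-ACBP libraries and to between 4899 and 5900 CPM in the isotype libraries, and their part in the chaperone values was not tested.

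Between S or G2M and G1 in cluster 2 the folding genes outside the 10 were counted by list, beside 27.7% of all genes called higher and 30.9% called lower. The share called higher was 10 of 15 for HSP90 and its co-chaperones, among them Fkbp4 (log2 fold change 1.03 ± 0.07) and Stip1 (0.87 ± 0.06), which carry clients to HSP90, with Unc45a lower. It was 13 of 14 for CCT and prefoldin, among them Tcp1 (0.92 ± 0.06) and Cct8 (0.72 ± 0.06), with Pfdn5 lower. It was 12 of 14 for ER chaperones, among them Sdf2l1 (1.25 ± 0.08) and Hsp90b1 (0.54 ± 0.05), with Dnajb9 lower, and 6 of 7 for mitochondrial chaperones and proteases, among them Trap1 (0.87 ± 0.10). Of other HSP70 and HSP110 genes 3 of 6 were higher (Hspa14, Hspa4 and Hspa9) and Hspa4l was lower. Of 6 exchange factors Hspbp1, Bag6 and Bag1 were higher. Of 15 other J-domain genes Dnajc9 (1.09 ± 0.07), Dnajc2 and Dnajc8 were higher and 6 were lower, among them Dnajb14 (-0.79 ± 0.13). Ier5 and Hsbp1, which act on HSF1, were lower, as were 19 of 21 immediate early genes. Unc45a, Pfdn5, Dnajb9 and Dnajc8 lie outside the naming rule and were chosen after their values were seen.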

How the data were processed

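T cells of 6 mice were measured by 5′ single-cell RNA sequencing. The values used are UMI counts, deposited unscaled as whole numbers for each barcode and gene symbol. Cell Ranger 7.0.0, Seurat and mm10 are listed in the submitters' processing notes, with no role given. Of 69249 barcodes, the 30749 cells of the deposited cell table were used, with its clusters, phases and DF1 column. No doublet caller was run. The sources used here do not explain DF1, so its FALSE cells were left out only as an alternative.

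UMI counts were summed per library and cluster and tested with edgeR 4.0.16 in R 4.3.3 (quasi-likelihood, robust, TMM factors, filterByExpr), leaving out 652 receptor and immunoglobulin segments. Adjustment was by Benjamini and Hochberg over all genes tested, with calls at 0.05, two-sided, and at least 20 cells per library. Each SE of an edgeR log2 fold change was derived from the test, as its absolute value over the square root of the F statistic. DESeq2 1.42.0 was an alternative. The change between clusters was tested as an interaction with library as a block, and S or G2M against G1 in cluster 2 with library as a block. The fits were tested on simulated data. The library is the replicate, with 3 mice per group. The summed UMI counts per library give CPM, and every SD is over libraries. Replicate numbers in the titles were not used to pair libraries.

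The members and lists were chosen with earlier results of these data known. Named are the 10 genes in each comparison, up to 4 called genes per list with the smallest adjusted p, and the 8 genes most like the inducible ones. Some genes that this rule names are not reported here. Receptor contigs were not used here.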

Additional observations from a re-analysis of the deposited data

Results flagged for a closer look

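Dnaja1 had a change with anti-ACBP that differed among clusters 0 to 7 by a test of the difference itself (edgeR's quasi-likelihood test, adjusted p = 0.0266). The log2 fold change was 0.36 ± 0.17 in cluster 6 and -0.07 ± 0.22 in cluster 3, and without isotype 1 it was 0.61 in cluster 6 and 0.16 in cluster 3. The call held without isotype 1 (adjusted p = 0.0014) and was lost when any other library was left out, with adjusted p between 0.10 and 0.25. The cause was not tested.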

How the results depend on the processing

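None of the 10 genes was called over all cells or without cluster 8 under any alternative except DESeq2. It called 1 in each, beside 7.53% and 7.13% of all genes. DESeq2 also called 1 in cluster 0 and 1 in cluster 2, beside 2.99% and 5.14% of all genes. With no filter on low counts the count called was 2 in cluster 0, 1 in cluster 2, 2 in cluster 3, 1 in cluster 4, 4 in cluster 6 and 6 for a change that differs between clusters, where 2.28%, 5.48%, 2.04%, 2.64%, 2.96% and 5.26% of all genes were called in the same fits. Replicate numbers did not pair the libraries (correlations of deviations 0.194, -0.0974 and -0.0495). With the replicate block, 1 gene was called in cluster 0, 4 in cluster 2 and 3 in cluster 3, beside 2.83%, 4.24% and 2.43% of all genes, and Hspa8 had a log2 fold change of 0.0033 over all cells and 0.013 without cluster 8. In cluster 6, RLE size factors gave 2 calls and leaving out cells with DF1 FALSE gave 2, beside 2.45% and 2.33% of all genes. Leaving out those cells also gave 0 calls for the difference between clusters and turned Dnaja1 between S or G2M and G1 to 0.032. Leaving out 1 library at a time gave 0 to 1 calls in clusters 2 and 3 and for the difference between clusters. The 1 call came without anti-ACBP 1 in cluster 2, beside 1.33% of all genes. It came without isotype 1 in cluster 3 and for the difference, beside 2.88% and 2.5%. In cluster 6 the count ran from 0 without isotype 2 (1.05% of all genes called) to 3 without isotype 1 (4.45% called). Those 3 were Hspa1b, Hspe1 and Dnaja1. The median log2 fold change without cluster 8 then ran from -0.38 to 0.12 (without isotype 1). Over all cells the log2 fold change then ran from -0.18 to 0.21 for Hspa8, -0.47 to 0.14 for Dnajb1, -0.0795 to 0.39 for Dnaja1 and -0.77 to 0.32 for Hspb1. Without cluster 8 it ran from -1.03 to 0.0914 for Hspa1a, -1.02 to 0.15 for Hspa1b, -0.16 to 0.22 for Hspa8, -0.42 to 0.18 for Dnajb1, -0.0701 to 0.40 for Dnaja1 and -0.26 to 0.84 for Hspb1. Between S or G2M and G1 it ran from -0.23 to 0.56 for Hspa1b, -0.017 to 0.12 for Dnajb1 and -0.056 to 0.0052 for Dnaja1. The causes were not tested. Outside cluster 8, the 303 cells with the most UMIs of a gene held 75.6% for Hspa1a, 61.4% for Hspa1b and 100% for Hspb1. The levels of these genes there therefore rest on few cells.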

Other observations

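Barcodes in the matrices but not in the deposited cell table also held chaperone UMIs. Fibroblast markers were high there, with Dcn at 450.9 to 1051 CPM and Sparc at 235.8 to 625.9 CPM over the 6 libraries, against at most 0.23 and 0.17 CPM in the cells used, and T cell markers such as Cd3e were lower in all 6 libraries. The part of other cell types in the following values was not tested. In these barcodes Dnajb1 was at 228.5 to 283.3 CPM in the anti-ACBP libraries and at 394.4 to 661.6 CPM in the isotype libraries. It was the only chaperone gene examined here whose ranges did not overlap there, and those of all the others did. The share of all genes whose ranges did not overlap in these barcodes was not counted, so the Dnajb1 values are a description only. Hspd1 was at 365.1 to 501.2 CPM in the anti-ACBP libraries and at 445.6 to 488.2 CPM in the isotype libraries, and Hspa1a at 19.3 to 32.6 CPM with anti-ACBP and 7.49 to 65.6 CPM with isotype.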
